A study of Mus musculus with 6 samples.

Results

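The enzymes described here are 9 genes of the mitochondrial tricarboxylic acid cycle other than the isocitrate dehydrogenases: Cs, Ogdh, Dlst, Dld, Suclg1, Suclg2, Sucla2, Fh1 and Mdh2. A probe set, the group of probes that reads out a transcript on an Affymetrix array, was taken where the platform annotation gave it a single symbol from this list. All 9 genes were found, with 13 probe sets of the 22626 on the array. The genes are 9 of 12393 with at least 1 such probe set. Cs was read by 3 probe sets, Dlst and Mdh2 by 2 each and the other genes by 1 each.

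Aortic RNA of C57BL/6J mice was measured on 6 arrays, 3 for a high fat diet and 3 for regular chow. Each array carried a pool of RNA from 3 aortas, so n = 3 pools per diet throughout, and single animals were not measured. The aortas were described as freed of adventitia and periaortic fat, although several adipocyte markers had high signals, as given further on. The high fat diet lasted 16 to 18 weeks, with a start at 10 weeks of age where stated, in its replicates 2 and 3. The label of high fat replicate 1 stated an age of 16 to 20 weeks and no sex, chow replicates 2 and 3 were males of 26 to 28 weeks, and chow replicate 1 was male with no age. High fat replicates 2 and 3 were males, and the labels name no genotype or drug. The age stated for high fat replicate 1 is below that of chow replicates 2 and 3 and hardly exceeds the length of its diet. Its age at collection is therefore unclear. If collected at the end of the diet, high fat replicates 2 and 3 had the age stated for chow replicates 2 and 3. Where ages are missing or differ, age and diet cannot be told apart.

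The cycle oxidises the acetyl group of acetyl-CoA, which comes from fatty acids, glucose and amino acids, and hands the electrons to the respiratory chain as NADH and as reduced flavin. Citrate synthase starts it, the alpha-ketoglutarate dehydrogenase complex and succinyl-CoA ligase carry the middle of it, and fumarase and malate dehydrogenase close it by remaking oxaloacetate. The cycle is most active in mitochondria-rich cells such as heart muscle and brown adipocytes, while vascular smooth muscle is known to rely strongly on glycolysis as well.

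All 13 probe sets had a higher mean signal on high fat diet than on chow, and no probe set passed the test. The arrays of Suclg1, Dlst, Ogdh, Sucla2 and Fh1 did not overlap between the diets. Suclg1 stood at 1.41 times its chow mean, Dlst at 1.34 times, Cs and Dld at 1.31 times each, Fh1 at 1.29 times and Sucla2 at 1.25 times. Ogdh, Mdh2 and Suclg2 had ratios of 1.17, 1.14 and 1.07. Over 1 probe set per gene, that of highest mean, the median log2 fold change of the 9 genes was 0.37, and over all 13575 probe sets tested it was -0.01. Signals were compared as log2(signal + 6) with limma, a linear model that shares variance between probe sets, and p-values were adjusted by Benjamini-Hochberg over all probe sets tested. A fold change on that scale slightly understates the change of low signals.

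Of the 13 probe sets, 0 passed an adjusted p of 0.05 in limma, where 0.0737% of all probe sets tested passed. At an unadjusted p of 0.05 there were 4, all higher on high fat diet, namely Suclg1, Dlst, Cs and Sucla2 by their brightest probe sets. Of all probe sets tested, 3.92% had such a p in that direction. The diets did not overlap for 5 of the 13, all of them higher on high fat diet, where 6.26% of all probe sets tested did so. A log2 fold change above 0 was found for 13 of 13 members and for 48.2% of all probe sets tested. Probe sets of the same gene read the same transcripts, and all genes were read from the same 6 pools, so these counts are not counts of independent observations. All 13 probe sets had passed the filter on low signals, which used the mean over all 6 arrays. The levels lay high on the array, since the brightest probe set of each gene ranked between the 78.4th percentile, Suclg2, and the 98.7th, Mdh2, of all probe sets.

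**Figure D1:**
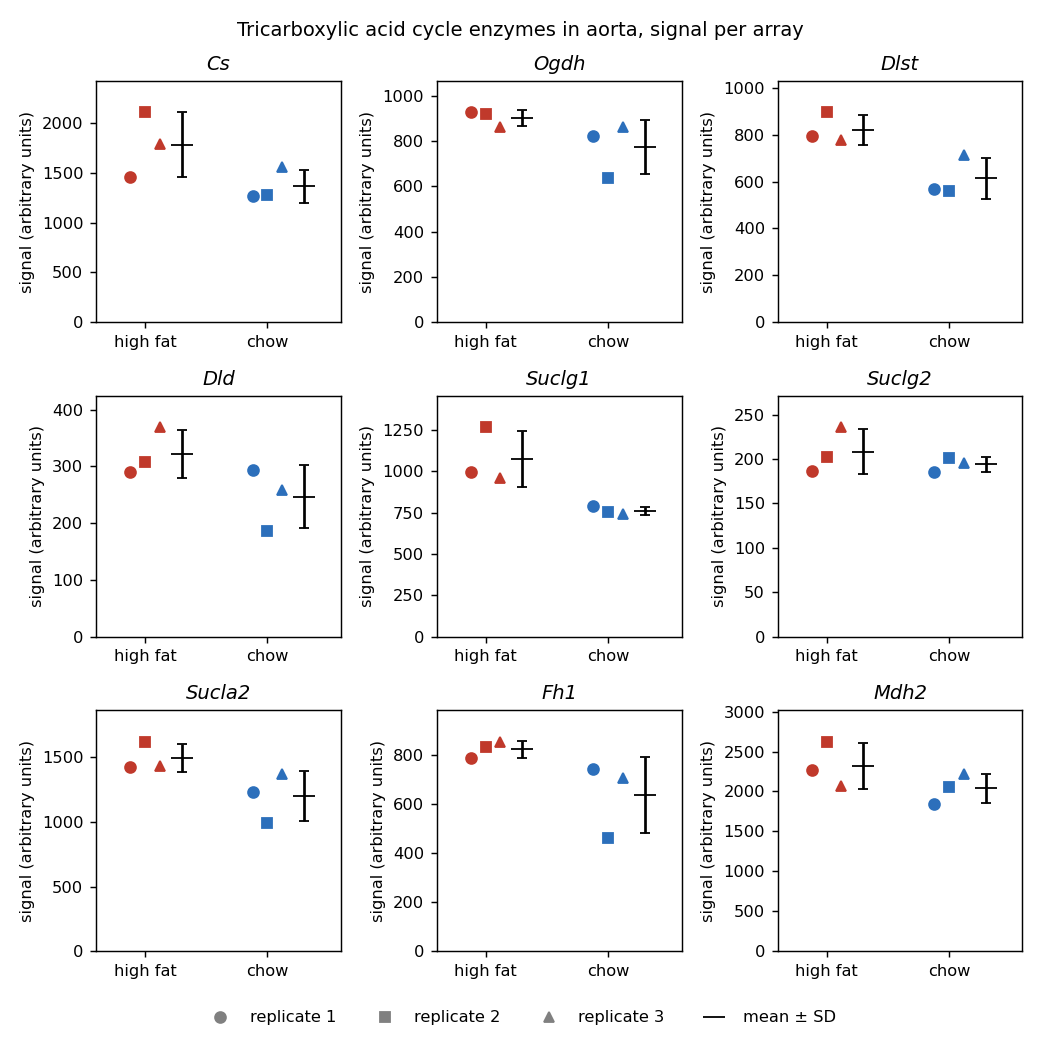
Signal in arbitrary units of the brightest probe set of each of the 9 enzymes, with 1 point per array, high fat at the left and chow at the right, and the mean ± SD (n = 3 pools) beside the points. The diets are separated for Ogdh, Dlst, Suclg1, Sucla2 and Fh1, and chow replicate 2 is the lowest array in 5 of the 9 panels.

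Cs encodes citrate synthase, which joins acetyl-CoA to oxaloacetate and is widely used as a measure of mitochondrial mass. Its brightest probe set had signals of 1456.4, 2109.9 and 1788.2 on high fat diet and of 1267.9, 1275.4 and 1558.1 on chow, here and in what follows in the order of replicates 1, 2 and 3. High fat replicates 2 and 3 lay above all chow arrays, while high fat replicate 1 lay below chow replicate 3, so the diets overlapped. The means were 1784.8 ± 326.8 on high fat diet and 1367.1 ± 165.4 on chow (SD, n = 3 each). The log2 fold change was 0.37 ± 0.16 (SE) with an adjusted p of 0.676 in limma. The other probe sets gave like differences, with log2 fold changes of 0.31 and 0.37. High fat replicate 2 was the highest array on all of them. The RefSeq promoter window of Cs is shown with those of Dlst, Suclg1 and Suclg2 further on.

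The alpha-ketoglutarate dehydrogenase complex turns alpha-ketoglutarate into succinyl-CoA and has 3 kinds of enzyme. Ogdh, its decarboxylating dehydrogenase, had signals of 925.8, 917.1 and 863.1 on high fat diet and of 819.8, 637.1 and 862.4 on chow. The diets were separated by a margin of under 1 unit, between high fat replicate 3 and chow replicate 3, and chow replicate 2 was the lowest array. The means were 902 ± 34.0 on high fat diet and 773.1 ± 119.7 on chow, a log2 fold change of 0.23 ± 0.15 (adjusted p = 0.786). Dlst, the succinyltransferase that carries the lipoyl arm, had 793, 894.8 and 775.7 on high fat diet and 566.8, 560.9 and 714 on chow. Every high fat array lay above every chow array. Its means were 821.2 ± 64.4 on high fat diet and 613.9 ± 86.7 on chow, a log2 fold change of 0.42 ± 0.14 (adjusted p = 0.58, unadjusted p = 0.0142, limma). The second Dlst probe set was dim, with 92.9, 87.1 and 77.6 on high fat diet and 12.7, 59.9 and 81 on chow. Its log2 fold change of 0.95 ± 0.46 rested on chow replicate 1, and without that array it was 0.28.

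Dld, the dihydrolipoamide dehydrogenase, is shared by this complex with the pyruvate and branched-chain keto acid dehydrogenases and with glycine cleavage. Its signals were 289.7, 307 and 369.4 on high fat diet and 294.3, 186.7 and 259.3 on chow. High fat replicate 1 lay just below chow replicate 1, and chow replicate 2 was well below the other arrays. The means were 322 ± 41.9 on high fat diet and 246.8 ± 54.9 on chow, a log2 fold change of 0.39 ± 0.19 (adjusted p = 0.735). Without chow replicate 2 it was 0.21.

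Succinyl-CoA ligase splits succinyl-CoA and makes a nucleoside triphosphate. The alpha subunit Suclg1 pairs with either of 2 beta subunits, Sucla2, which gives the ATP-forming enzyme, or Suclg2, which gives the GTP-forming enzyme. Suclg1 had signals of 993.3, 1267.4 and 959.6 on high fat diet and of 789.9, 753.1 and 740.5 on chow. The diets were clearly apart, and the chow arrays lay close together. The means were 1073.4 ± 168.8 on high fat diet and 761.2 ± 25.7 on chow, a log2 fold change of 0.48 ± 0.14 with a 95% interval from 0.17 to 0.79. It had the smallest unadjusted p of the 9 genes, 0.00602, which ranked at 164 among the probe sets tested (adjusted p = 0.498, limma).

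Sucla2 had 1424.9, 1617.7 and 1431.7 on high fat diet and 1231.7, 990.6 and 1369.2 on chow. The diets did not overlap, although chow replicate 3 came close to the high fat arrays. The means were 1491.4 ± 109.4 on high fat diet and 1197.2 ± 191.6 on chow, a log2 fold change of 0.33 ± 0.14 (adjusted p = 0.696). Suclg2 had 186, 202.6 and 236 on high fat diet and 185, 201.7 and 195.6 on chow. High fat replicates 2 and 3 lay above the chow arrays, replicate 2 by less than 1 unit, and high fat replicate 1 lay among them, so the diets overlapped. Its means were 208.2 ± 25.5 on high fat diet and 194.1 ± 8.5 on chow, a log2 fold change of 0.09 ± 0.16 with a 95% interval from -0.25 to 0.44, so that a difference as large as that of Sucla2 was within its error.

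Whether the beta subunits changed unequally was tested on the difference of their log2 values within each array. This difference, Sucla2 minus Suclg2, was 2.90, 2.96 and 2.57 on high fat diet and 2.70, 2.26 and 2.77 on chow. The arrays overlapped, and the means, 2.81 ± 0.21 on high fat diet and 2.58 ± 0.27 on chow, differed by 0.23 (exact permutation test, two-sided, p = 0.3, n = 3 each). With 3 pools against 3 the smallest p this test can give is 0.1. Since different probes bind with different strength, the difference does not state which subunit was more abundant. Without chow replicate 2 it was 0.08.

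Fh1, the fumarase that hydrates fumarate to malate, had signals of 784.2, 829 and 852.2 on high fat diet and of 741.8, 459.7 and 706.5 on chow. The high fat arrays lay close together above all chow arrays, and chow replicate 2 was far below the rest. The means were 821.8 ± 34.6 on high fat diet and 636 ± 153.7 on chow, a log2 fold change of 0.40 ± 0.18 (adjusted p = 0.707). Without chow replicate 2 it was 0.18. Mdh2, the mitochondrial malate dehydrogenase, had 2264.4, 2623.5 and 2063.8 on high fat diet and 1849.8, 2053.2 and 2217 on chow by its brightest probe set. High fat replicate 3 lay below chow replicate 3, and the diets overlapped. The means were 2317.2 ± 283.6 on high fat diet and 2040 ± 184.0 on chow, a log2 fold change of 0.18 ± 0.13 with a 95% interval from -0.11 to 0.47. The second Mdh2 probe set had 0.14 ± 0.14. Its highest array was high fat replicate 1 rather than high fat replicate 2.

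**Figure D2:**
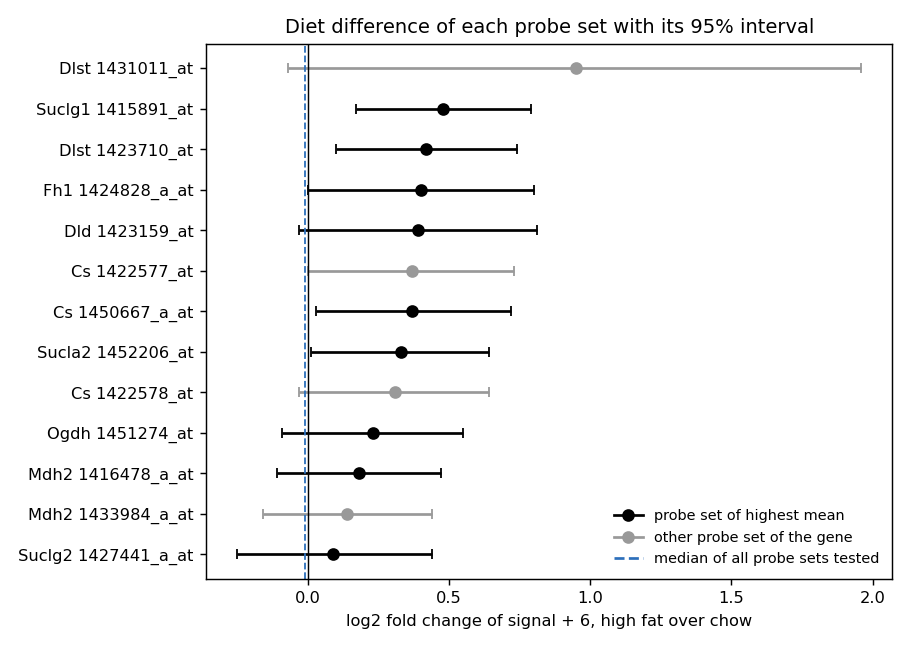
Log2 fold change of each of the 13 probe sets, high fat over chow, with its 95% interval from limma, in black for the brightest probe set of a gene and in grey for its others. All points lie to the right of 0 and of the median of all probe sets tested (dashed, -0.01), from 0.09 for Suclg2 to 0.95 for the dim Dlst probe set.

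The array that was highest or lowest was shared by many of the genes. High fat replicate 2 was the highest array for 5 of the 9 genes, high fat replicate 3 for 3 and high fat replicate 1 for 1, while chow replicate 2 was the lowest for 5, chow replicate 1 for 3 and chow replicate 3 for 1. Set against their 6-array means on the log2 scale, the 9 genes stood on average at 0.07, 0.26 and 0.16 on high fat diet and at -0.13, -0.33 and -0.03 on chow. The nearest arrays of the diets, high fat replicate 1 and chow replicate 3, were thus 0.10 apart, less than the range of 0.19 within the high fat arrays or 0.29 within the chow arrays. Without chow replicate 2 the median log2 fold change was 0.20 and 2 probe sets had an unadjusted p under 0.05. When high fat replicate 2 was left out, such probe sets were again 2 and the median was 0.27. Leaving out high fat replicate 3 likewise gave 2, and leaving out chow replicate 3 gave 8. Over all probe sets tested, the share with such a p in either direction was 7.03% on the 6 arrays, 5.27% without chow replicate 2, 4.53% when high fat replicate 2 was left out, 8.56% for high fat replicate 3 left out and 7.39% for chow replicate 3. The count of probe sets whose diets did not overlap was 10, 8 and 9 when high fat replicate 1, high fat replicate 3 or chow replicate 3 was left out, where fewer arrays also made 24.1%, 27.2% and 23.7% of all probe sets tested free of overlap in either direction.

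The sequences upstream of the genes were examined because all 9 genes had a higher mean on high fat diet. RefSeq promoter windows of 300 bases on GRCm38.p6, 250 before and 50 after a transcription start, were found for 9 of 9 genes, 14 windows in all because Ogdh has 6. The windows below belong to the 3 genes with the smallest p, Suclg1, Dlst and Cs, and to Suclg2, whose difference was the smallest. They lie at chr6:73248255-73248554 (plus strand) for Suclg1, chr12:85110583-85110882 (plus strand) for Dlst, chr10:128337477-128337776 (plus strand) for Cs and chr6:95718797-95719096 (minus strand) for Suclg2. Capitals mark the letters of the GC box (GGGCGG), the element bound by Sp1 family factors, and of the CCAAT box (CCAAT), bound by NF-Y, on either strand.
Suclg1: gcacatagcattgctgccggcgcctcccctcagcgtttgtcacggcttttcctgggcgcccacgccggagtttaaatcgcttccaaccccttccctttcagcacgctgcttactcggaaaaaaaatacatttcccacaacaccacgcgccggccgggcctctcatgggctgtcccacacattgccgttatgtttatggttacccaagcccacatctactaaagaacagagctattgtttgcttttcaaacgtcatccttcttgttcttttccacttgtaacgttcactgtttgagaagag
Dlst: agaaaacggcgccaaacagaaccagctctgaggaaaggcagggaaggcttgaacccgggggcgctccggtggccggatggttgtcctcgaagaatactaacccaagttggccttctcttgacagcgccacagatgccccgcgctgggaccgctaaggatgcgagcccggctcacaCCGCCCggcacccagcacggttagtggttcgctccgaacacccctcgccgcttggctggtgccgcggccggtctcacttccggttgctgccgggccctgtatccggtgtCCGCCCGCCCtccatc
Cs: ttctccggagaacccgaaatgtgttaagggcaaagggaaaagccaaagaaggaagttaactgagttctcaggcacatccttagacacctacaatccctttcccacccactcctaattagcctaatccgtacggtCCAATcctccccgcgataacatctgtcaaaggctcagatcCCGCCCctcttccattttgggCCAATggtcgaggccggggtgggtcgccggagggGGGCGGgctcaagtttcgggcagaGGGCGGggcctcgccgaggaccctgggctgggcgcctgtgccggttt
Suclg2: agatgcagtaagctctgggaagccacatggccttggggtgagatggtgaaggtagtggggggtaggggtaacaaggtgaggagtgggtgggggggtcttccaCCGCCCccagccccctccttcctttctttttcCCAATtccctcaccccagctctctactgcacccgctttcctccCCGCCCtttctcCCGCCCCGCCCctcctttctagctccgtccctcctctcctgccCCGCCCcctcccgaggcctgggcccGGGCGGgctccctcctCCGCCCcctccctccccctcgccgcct

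The Suclg1 window held neither motif and the Dlst window the GC box alone, while those of Cs and Suclg2 held both, Suclg2 with the GC box 7 times. A GC box was found in 7 of the 9 genes, all but Dld and Suclg1, and in 38.2% of all 27025 genes with a window. Apart from Ogdh, which had several windows in which a match could fall, the windows with it held 54.3% (Fh1) to 67.7% (Suclg2) of G and C. Those of Dld and Suclg1 held 47.0% and 51.0%, and the median of all windows was 52.7%. The part of base composition in these counts was not tested. A CCAAT box was found in 5 of the 9, Cs, Dld, Fh1, Ogdh and Suclg2, and in 41.1% of all genes. The extended element of estrogen-related receptors (TNAAGGTCA), nuclear receptors that act on mitochondrial genes, was in 0 of the 9 and in 1.4% of all genes. Its core (AAGGTCA), which the extended element contains, was in 1 of the 9, Ogdh, and in 5.4% of all genes. Both strands were searched and the GC box sites of Dlst and Suclg2 overlap in part. Motif matches describe these letters in these windows alone.

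The other genes of the cycle stood higher on high fat diet too. Of 13 listed genes of isocitrate and succinate oxidation, with aconitase and the assembly factors of succinate dehydrogenase, 11 had a probe set with that symbol and were tested. All 11 had a log2 fold change above 0, with a median of 0.33. Taking 1 probe set per gene, 50.8% of all 8327 genes had a value above 0. By the brightest probe set of each gene, 0 of the 11 passed limma's adjusted threshold. An unadjusted p of 0.05 was met by 6, all of them higher on high fat diet, where 4.28% of all genes did so. Sdhaf4, an assembly factor of succinate dehydrogenase, had 266.4, 345.8 and 340.6 on high fat diet and 203.1, 189.6 and 216.3 on chow, without overlap (log2 fold change 0.62 ± 0.16, adjusted p = 0.445). Sdhb, the iron-sulfur subunit of that enzyme, had means of 2197.6 ± 384.4 on high fat diet and 1620.5 ± 258.9 on chow, with overlap (0.43 ± 0.16, adjusted p = 0.621). Idh3a, the catalytic subunit of the NAD-dependent isocitrate dehydrogenase, had 0.60 ± 0.17 by its brightest probe set (adjusted p = 0.488), and a dimmer one passed (0.95 ± 0.14, adjusted p = 0.0435). That was the 1 probe set past the threshold among 138 of the 74 genes tested from the 5 pathway lists used here.

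Enzymes that share lipoate or Dld with the alpha-ketoglutarate dehydrogenase complex, with the lipoate-making genes, had a median of 0.19 over 13 genes tested. Of these, 11 stood above 0 and 2 below, 0 passed, and 2 had an unadjusted p under 0.05, both higher on high fat diet. Of all genes, 50.8% stood above 0 and 4.28% had such a p in that direction. The same shares apply to the lists and markers that follow. Pdhb, a subunit of pyruvate dehydrogenase, had means of 1788.7 ± 213.4 on high fat diet and 1325.9 ± 299.3 on chow (log2 fold change 0.45 ± 0.17, adjusted p = 0.632). Bckdhb, its counterpart for branched-chain keto acids, had 393.1 ± 62.4 on high fat diet and 281.4 ± 51.8 on chow (0.48 ± 0.18, adjusted p = 0.632). Mrps36, an adaptor subunit of the alpha-ketoglutarate dehydrogenase complex, had 368.7, 381.3 and 322.9 on high fat diet and 275.8, 265.3 and 313.3 on chow (0.32 ± 0.15, adjusted p = 0.707). Its diets did not overlap. In the same complex the diets were apart for Dlst by its brightest probe set and, by a narrow margin, for Ogdh, while they overlapped for Dld.

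Genes of mitochondrial import, structure and DNA maintenance, which hold no cycle enzyme, had a median of 0.15. Above 0 stood 22 of 28, and 50.8% of all genes. By limma 0 of the 28 passed. The 3 with an unadjusted p under 0.05 were Hspa9, a mitochondrial chaperone, Chchd3, a protein of the inner membrane folds, and Timm23, an import channel. Their log2 fold changes were 0.43, 0.42 and 0.39. Tfam, which packages mitochondrial DNA, had 0.08, and Vdac1, the outer membrane pore, had 0.21. Cytosolic enzymes of the same reactions and the shuttles had a median of 0.12, with 7 of 10 above 0, 0 past the threshold and 1 with an unadjusted p under 0.05. That gene was Me1, the cytosolic malic enzyme (0.72 ± 0.23, adjusted p = 0.531), which stood beside Got1, the cytosolic aspartate aminotransferase, at 0.66 ± 0.44 and Aco1, the cytosolic aconitase, at -0.38 ± 0.19.

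Reactions that feed or drain the cycle had a median of 0.01, with 7 of 12 above 0, and 0 of them passed by limma, nor was an unadjusted p of 0.05 met by any of the 12. Pcx, the pyruvate carboxylase that supplies oxaloacetate, had 438.8, 449.3 and 403.4 on high fat diet and 506.7, 501.5 and 568.3 on chow. All high fat arrays lay below all chow arrays, the opposite order to Suclg1 and Dlst (log2 fold change -0.28 ± 0.13, adjusted p = 0.726). Oxct1, which activates ketone bodies with succinyl-CoA taken from the cycle, had means of 1661.4 ± 314.0 on high fat diet and 2019.4 ± 208.0 on chow (-0.29 ± 0.15). Pcca, a subunit of the propionyl-CoA carboxylase, had 630.8 ± 72.9 on high fat diet and 503.2 ± 63.3 on chow (0.32 ± 0.15).

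**Figure D3:**
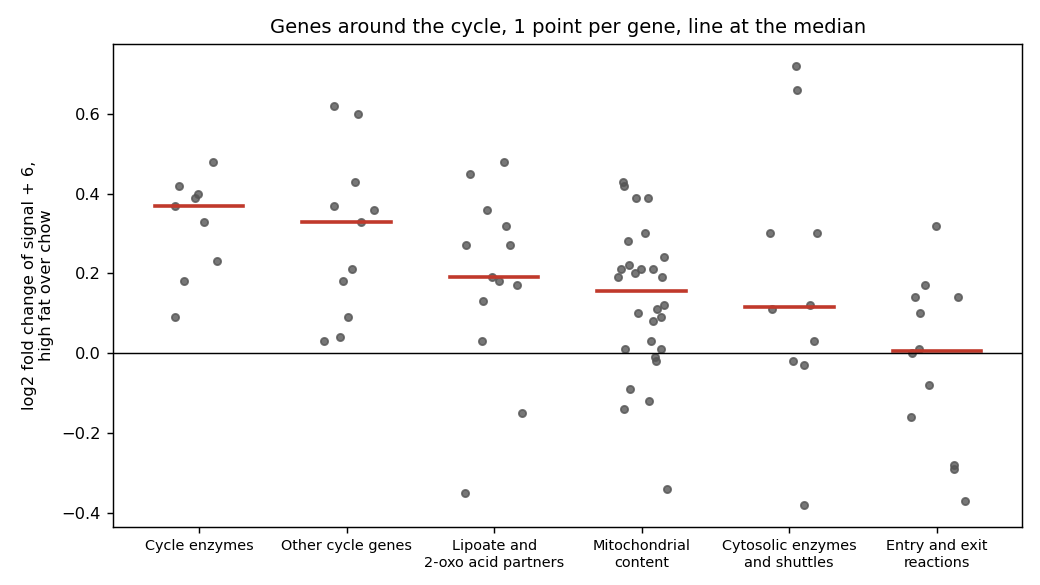
Log2 fold change, high fat over chow, of the brightest probe set of each gene in the 9 cycle enzymes and in 5 lists of related genes, with 1 point per gene and a line at the median. The medians are 0.37 for the cycle enzymes and 0.33, 0.19, 0.15, 0.12 and 0.01 for the lists, and no difference between lists was tested.

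Genes outside the 9 were ranked by how closely they followed the mean of the 9 across the arrays. Among 8318 genes, the 5 closest were Idh3a, Ndufv2, a subunit of respiratory complex I, Coq6, an enzyme of coenzyme Q synthesis, Mrpl51, a mitochondrial ribosomal protein, and Plk2, a cell cycle kinase. Their Pearson coefficients over the 6 arrays lay between 0.989 and 0.997, given as a rank order over arrays of both diets and without a test. Ndufv2 had 1324.3, 1596.8 and 1416.4 on high fat diet and 1093.1, 942.7 and 1257.5 on chow. The mean they were ranked by separates the diets, so the direction of these genes follows from the ranking.

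Markers of other cells were compared because the cycle is most active in mitochondria-rich cells, and in bulk RNA more cells of a type and more RNA per cell cannot be told apart. Smooth muscle markers marked the tissue as labelled, with Acta2 and Tagln above the 99th percentile of all probe sets on average. The summed signal of 10 such markers was 25999 to 27432 on high fat diet and 25286 to 31584 on chow. Of these 10, 8 stood below 0 in log2 fold change (median -0.13). Brown adipocyte markers ranged from Ucp1, Cox8b and Cidea, at or above the 98.8th percentile of all probe sets, to Ebf2, Ppargc1a and Zic1, at percentiles of 53.5, 49.2 and 19.7. Ucp1, the uncoupling protein that defines those cells, had 3664.2, 3622.7 and 3154.2 on high fat diet and 2592.5, 2121.6 and 2723.6 on chow. The summed signal of 10 of them was 10572 to 12863 on high fat diet and 6903 to 9093 on chow, without overlap. In log2 fold change 8 of the 9 tested stood above 0 (median 0.49), where 50.8% of all genes did. An unadjusted p under 0.05 in limma was met by 5 of the 9, all higher on high fat diet, where 4.28% of all genes did so. Chow replicate 2 was lowest and high fat replicate 2 highest in the sum of the brown adipocyte markers, as for the mean of the 9 cycle enzymes. The sums of the macrophage markers and of the other cycle genes had the same lowest and highest arrays. The part of brown adipocytes in the differences of the cycle enzymes was not tested. White adipocyte markers summed to 9069 to 9702 on high fat diet and 7715 to 10323 on chow over 8 genes, with overlap. Of the 7 tested, 6 stood above 0 (median 0.15), with Cidec at 0.20 without overlap. Retn alone stood below 0, at -1.06 without overlap. It passed the threshold (adjusted p = 0.0435, limma), as did 0.0737% of all probe sets tested. Lipe, at 0.54, also had an unadjusted p under 0.05. Lep, too dim to be tested, was higher on high fat diet without overlap. Among the 8 genes, Fabp4 and Adipoq stood at percentiles of 99.7 and 98.3. Some brown and white adipocyte markers were thus among the brightest probe sets, although the aortas were described as freed of periaortic fat.

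Cardiac muscle markers varied widely. The summed signal of 13 was 1086, 8268 and 6223 on high fat diet, against 2839, 4167 and 1045 on chow. All 11 tested stood above 0 in log2 fold change, with a median of 0.69. The diets overlapped for each of them, and 0 had an unadjusted p under 0.05 in limma. Macrophage markers summed to 2815 to 4603 on high fat diet and 2163 to 2755 on chow over 10 genes. Of 8 tested, 7 stood above 0 and 4 had such a p, all 4 higher on high fat diet, where 4.28% of all genes did so. Endothelial markers summed to 1635 to 1986 on high fat diet and 1447 to 1570 on chow over 10 genes. Of 9 tested, 8 stood above 0 and 2 had such a p, both higher on high fat diet. The diets did not overlap in the macrophage or the endothelial sum. As a mean of log2 values the macrophage markers did overlap, with high fat replicate 1 at -0.08 and chow replicate 1 at -0.07. Skeletal muscle markers summed to 408 to 689 on high fat diet and 453 to 1158 on chow over 12 genes. Of 5 tested, 4 stood below 0 and 2, the dim Tnnc2 and Pvalb, had an unadjusted p under 0.05. Both were lower on high fat diet, where 7.03% of all probe sets tested had such a p in either direction. Schwann cell markers summed to 1585 to 2027 on high fat diet and 1587 to 1874 on chow over 6 genes. Pmp22 was by far the brightest of them, with a mean of 1228.3 and a log2 fold change of -0.06. Of the 6, 4 stood above 0. S100b had 1.21 without overlap (unadjusted p = 9.33e-05, adjusted p = 0.0905, limma) and was the only 1 with an unadjusted p under 0.05. No marker of these lists was listed at 0, and their part in the result was not tested. The actin control's 3′ over 5′ signal, a measure of RNA integrity, was 1.27 to 1.94 on high fat diet and 1.37 to 1.79 on chow. The same ratio for Gapdh was 0.96 to 1.07 on high fat diet and 0.89 to 1.38 on chow, highest in chow replicate 2, the lowest array for most of the cycle enzymes. The actin ratio was instead highest in high fat replicate 2, at 1.94, followed by chow replicate 2 at 1.79. High fat replicate 2, the highest array for most of the cycle enzymes, had the lowest mean correlation with the other arrays across probe sets, 0.953. The part of these array properties in the result was not tested.

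**Figure D4:**
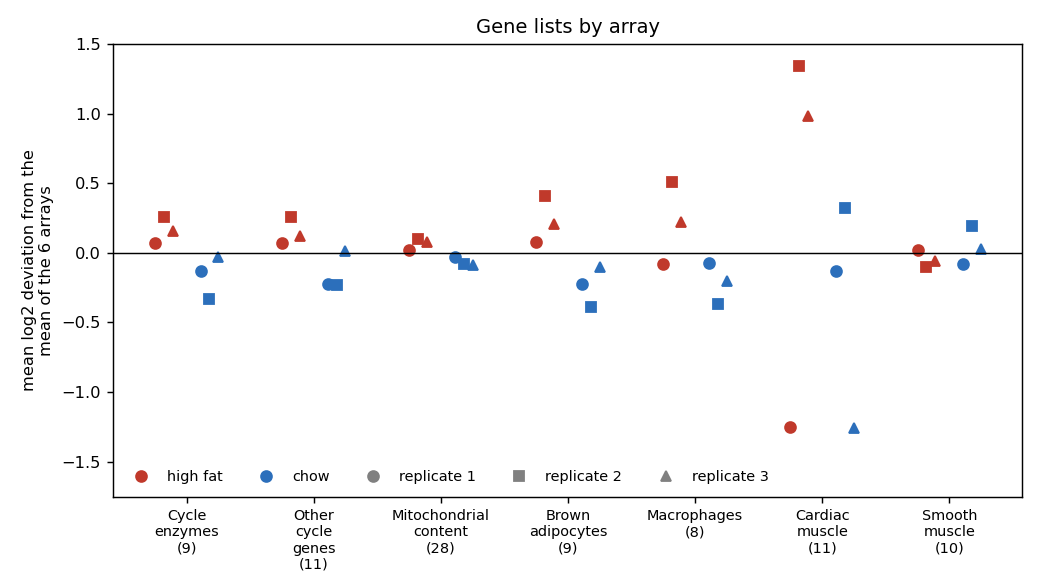
Mean of each gene list on the log2 scale relative to its 6-array mean, with the number of genes tested under its name, 1 point per array, high fat at the left and chow at the right. The cycle enzymes, the other cycle genes and the brown adipocyte markers separate the diets with high fat replicate 2 at the top and chow replicate 2 at the bottom. The mitochondrial content genes separate the diets too, with chow replicate 3 at the bottom. Cardiac muscle markers spread from -1.26 to 1.34 across both diets.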

How the data were processed

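RNA of 6 aorta pools was hybridised to Affymetrix mouse arrays. The authors deposited 1 signal intensity per probe set and array, linear in scale and made with MAS5 per the submitters' processing notes. The version of MAS5 was not given in the sources used here. Per the labels' protocols, 5 µg of RNA entered each labelling. The 2% trimmed mean was 150.05 on every array, so the deposited scaling was kept. Median signals were 58.4 to 66.6, and no detection calls were used, so low signals could not be set apart from background. Precision is limited by the number of arrays, and a p-value reflects how pools, not animals, vary.

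After 64 control probe sets were left out, 22626 remained, of which 20380 had 1 symbol in the platform annotation, 691 several and 1555 none. Signals were taken as log2(signal + 6). Probe sets with a mean above the 40th percentile, 13575, were fitted by limma 3.58.1, run in R 4.3.3, using lmFit and eBayes with the trend option. Tests were two-sided, and p-values were adjusted by Benjamini-Hochberg with a threshold of 0.05. The fit was run on simulated data with planted changes larger than that of any member and with independent noise. It was not tried on changes of the members' size. Where a gene had several probe sets, the brightest stood for it unless stated. Every member is named, and from each pathway list the 3 genes of smallest p, Tfam and Vdac1 being added after their values were seen. The members, lists and tests were chosen with earlier results of these data known. The Sucla2 and Suclg2 difference was tested with scipy 1.17.1. Same-numbered pools of the 2 diets deviated from their group means with correlations of 0.03, 0.17 and -0.11, so the numbers were not treated as pairs. As alternatives the pseudocount was set to 1 or 21, the filter was dropped or raised to the 60th percentile, and the arrays were quantile normalized or scaled to equal medians. The variance trend was left out, the robust option of eBayes or array weights were used, and the replicate number was added as a block. Single arrays were left out, and a gene's probe sets were averaged. Promoter windows are from RefSeq on GRCm38.p6.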

Additional observations from a re-analysis of the deposited data

How the results depend on the processing

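All 13 member probe sets kept a log2 fold change above 0, down to 0.00 after rounding for Suclg2 without high fat replicate 3, and stayed short of the adjusted threshold under each of 16 alternatives of the fit, or 12 of 12 where the filter at the 60th percentile removed the dim Dlst probe set. The median log2 fold change of the 9 genes was 0.33 with equal medians, 0.40 with quantile normalization, 0.35 when a gene's probe sets were averaged and 0.20 to 0.44 with 1 array left out. The member probe sets with an unadjusted p under 0.05, 4 of 13, became 7 with quantile normalization, 2 with equal medians, 2 without the variance trend and 2 to 8 with 1 array left out. Those without overlap, 5 of 13, became 3 with equal medians and 5 to 10 with 1 array left out. The count of all probe sets past the threshold, 10, became 6 without a filter, 5 without the variance trend and 5 to 16 with 1 array left out. With the replicate block that count was 5 and the members with an unadjusted p under 0.05 numbered 6. The difference between Sucla2 and Suclg2 was 0.08 to 0.35 with 1 array left out. Apart from the arrays left out, the cause of these moves was not tested. With 3 pools per diet, a member's log2 fold change had a standard error of 0.13 to 0.19 by its brightest probe set.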
